A study of Mus musculus with 10 samples.

Results

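The PIM kinase genes *Pim1*, *Pim2* and *Pim3* and the IRF2BP genes *Irf2bp1*, *Irf2bp2* and *Irf2bpl* were examined in the liver transcriptome of germ-free (GF) mice given microbiota-derived extracellular vesicles (MEV). These 6 genes were looked up by symbol among the 12148 genes of the count table, and all 6 were present. The set was chosen by the difference between groups of *Pim3* and *Irf2bp2*, among the most consistent rises in these same livers, so the values of that pair are given as a description with no test. The other 4 genes are their relatives, and entered with no requirement on their values.

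Liver RNA was sequenced from 10 wild-type C57BL/6 mice, 1 library per mouse. All 10 were raised without a microbiota. The GF+MEV group (5 mice) received 80 μg of vesicles in PBS by mouth, 2 times per week for 3 weeks, and the vesicles came from the gut content of control specific-pathogen-free mice. The GF+PBS group (5 mice) received PBS alone on the same schedule. The age and sex of the germ-free mice, and the hour of liver collection, were not given in the sources used here. The question was how oral MEV change the liver transcriptome, and the RNA is of whole liver, so a lower share of a cell type and less RNA per cell cannot be told apart.

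PIM kinases are serine/threonine kinases of the calcium/calmodulin-dependent kinase group. They are active as soon as they are made, so their activity is set largely by how much mRNA and protein the cell makes and how fast both decay. Cytokine and growth hormone receptors that signal through JAK kinases and STAT factors are the textbook inducers of *Pim1*, and PIM kinases phosphorylate many of the same proteins as AKT, among them BAD, FOXO factors and regulators of translation. IRF2BP proteins carry a zinc finger at the amino terminus and a RING domain at the carboxyl terminus. The founding members were found as corepressors bound to IRF2, a transcription factor that counters IRF1 at interferon-responsive promoters, and later work tied IRF2BP2 to NFAT factors and to the TEAD cofactor VGLL4.

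The sequences just upstream of *Pim3*, *Irf2bp2* and *Pim1*, the 3 genes with the largest differences between groups among the 6, are shown because the former pair was higher in GF+MEV livers and *Pim1* was lower. They are from RefSeq on the GRCm38.p6 build, are written 5′ to 3′ on the strand of the gene and end at the base before the first annotated transcript start. Capitals mark GC boxes (GGGCGG or its complement CCGCCC) and CCAAT boxes (CCAAT or its complement ATTGG). *Pim3* is at chr15:88861944-88862185 (plus strand, 242 bases), *Irf2bp2* at chr8:126593987-126594236 (minus strand, 250 bases) and *Pim1* at chr17:29490535-29490752 (plus strand, 218 bases).
Pim3: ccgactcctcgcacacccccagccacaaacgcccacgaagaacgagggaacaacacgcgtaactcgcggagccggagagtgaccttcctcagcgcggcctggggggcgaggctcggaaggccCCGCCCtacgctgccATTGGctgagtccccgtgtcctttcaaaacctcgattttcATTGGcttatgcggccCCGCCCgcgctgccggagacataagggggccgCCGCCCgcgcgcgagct
Irf2bp2: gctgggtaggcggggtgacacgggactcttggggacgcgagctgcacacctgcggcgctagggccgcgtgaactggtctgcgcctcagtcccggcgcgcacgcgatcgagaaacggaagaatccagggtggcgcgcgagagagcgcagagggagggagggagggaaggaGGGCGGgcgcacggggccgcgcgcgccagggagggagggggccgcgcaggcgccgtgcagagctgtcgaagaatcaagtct
Pim1: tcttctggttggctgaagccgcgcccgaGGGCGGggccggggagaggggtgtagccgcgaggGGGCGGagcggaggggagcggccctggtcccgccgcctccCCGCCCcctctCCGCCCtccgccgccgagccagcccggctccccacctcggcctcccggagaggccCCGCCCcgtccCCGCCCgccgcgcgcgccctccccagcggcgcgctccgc

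All 3 stretches are rich in G and C. Over the full RefSeq windows, from 250 bases before to 50 bases after the start, the GC content was 69.0% for *Pim3*, 71.7% for *Irf2bp2* and 81.3% for the first window of *Pim1*, against a median of 52.7% over 32851 windows of 27025 genes. These windows held 40.0, 39 and 42 CpG dinucleotides, where the median window held 7. The windows of *Irf2bpl*, *Pim2* and *Irf2bp1* were also above both medians, at 69%, 62.7% and 60% GC and 26, 31 and 23 CpG dinucleotides. The second window of *Pim1* was not, at 49% GC and 5 CpG dinucleotides. The *Pim3* window had 4 GC boxes and 2 CCAAT boxes, that of *Irf2bp2* 1 GC box and no CCAAT box, and that of *Pim1* 7 GC boxes. The last GC box of *Pim3* and that of *Pim1* lie beyond the printed stretch. Over all windows, 35.7% held a GC box and 37.4% a CCAAT box.

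Letters bound by factors that respond to cytokines or hormones were searched on both strands of the same windows. The searched letters were the STAT site TTCNNNGAA (in 8.30% of all windows), the cAMP response element TGACGTCA (1.79%), its first part TGACG, which overlaps it (20.8%), the glucocorticoid receptor's AGAACA (19.0%) and the E-box CACGTG (7.15%). None of these letters was in the windows of *Pim3*, *Irf2bp2* or the first start of *Pim1*. *Irf2bpl* held TGACGTCA 30 bases before its start, *Irf2bp1* held TTCCCAGAA 59 bases before its start, and the window of the second *Pim1* start held CACGTG 58 bases before it. The *Pim2* window held 1 GC box and 1 CCAAT box. A match is a description of letters and not of binding, and a window without one says nothing of sites elsewhere.

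Library totals ranged from 15746119 to 20523649 counts on genes, and levels are given as CPM, a gene's count scaled to the library size by edgeR's TMM method. Of 12147 tested genes, edgeR's quasi-likelihood test with Benjamini-Hochberg adjustment called 500 higher (4.12%) and 428 lower (3.52%) in GF+MEV livers at an adjusted p under 0.05. Every GF+MEV liver lay above every GF+PBS liver for 3.94% of genes, and below for 3.45%. Within GF+PBS, replicates 1 and 3 (root mean square difference of 0.28 in log2 CPM over all genes) and replicates 4 and 5 (0.28) were more alike than the other pairs (0.31 to 0.40). Pairs of GF+MEV livers differed by 0.32 to 0.38. The labels name the livers as separate mice, and each was counted once.

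*Pim3* (ENSMUSG00000035828, chr15:88862186-88865726 on the plus strand of GRCm38, up to 6 exons) encodes the PIM kinase known from tumours of liver and pancreas, and it was the most abundant of the 6 genes. In GF+MEV livers 1 to 5 its level was 429, 449, 374, 411 and 425 CPM. In GF+PBS livers 1 to 5 it was 75.9, 77.7, 73.5, 101 and 102 CPM. The groups lay far apart, and GF+PBS replicates 4 and 5 stood above the other 3 livers of their group. The means were 418 ± 27.7 CPM (SD, n = 5) and 85.8 ± 13.99 CPM (SD, n = 5), a 4.86-fold difference (log2 fold change 2.28, standard error 0.11). By size of rise it was number 21 of the 12147 genes.

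The *Pim3* values rest on 6509 to 7755 reads per GF+MEV library and 1235 to 1990 reads per GF+PBS library. Counting error alone would give a coefficient of variation of 1.19% and 2.59%, and the observed coefficients were 6.64% and 16.3%, so the spread is mostly between livers. No stretch of 50 bases in the *Pim3* transcripts was shared with another annotated transcript, and its exons overlap no other gene. With the alike GF+PBS libraries summed (replicates 1 and 3, and 4 and 5), the log2 fold change was 2.31. Leaving out any single liver gave 2.23 to 2.35.

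*Pim1* (ENSMUSG00000024014, chr17:29490753-29496112, plus strand, up to 6 exons) is the founding PIM gene and the classical STAT target of the family. Its level was 19.3, 24.5, 20.8, 22.1 and 17.5 CPM in GF+MEV livers 1 to 5, and 33.5, 29.0, 33.5, 31.0 and 29.7 CPM in GF+PBS livers 1 to 5. Every GF+MEV liver was below every GF+PBS liver, opposite to *Pim3*, and 3.45% of all genes lay that way. The means were 20.8 ± 2.67 CPM and 31.4 ± 2.11 CPM (SD, n = 5 each). *Pim1* fell by 0.59 on the log2 scale (standard error 0.093, edgeR quasi-likelihood test, Benjamini-Hochberg adjusted p = 0.000604), so that it was 1.504-fold higher in GF+PBS livers. It was the only one of the 4 relatives past the threshold, where 3.52% of all genes were called lower.

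The 95% interval of the *Pim1* log2 fold change from limma-voom was -0.78 to -0.41. The fall stayed past the threshold in each of the 18 alternative fits, with adjusted p-values of at most 0.00710, which came from the fit with summed GF+PBS libraries. An antisense transcript, Gm26885, covers 488 bases (14.5%) of the *Pim1* exons on the other strand and has no row in the count table. The strand setting of the counting is not given in the sources used here. Whether reads in that overlap were counted for *Pim1* or left out is therefore not known.

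*Pim2* (ENSMUSG00000031155, chrX:7878262-7883432, plus strand, up to 6 exons) is the family member best known from lymphoid cells, and it was the least abundant of the 6 genes. Its level was 1.95, 2.28, 2.41, 2.36 and 2.57 CPM in GF+MEV livers 1 to 5 and 3.11, 2.35, 2.20, 3.08 and 3.42 CPM in GF+PBS livers 1 to 5. The groups overlapped, since GF+PBS replicates 2 and 3 lay within the GF+MEV range. Its log2 fold change of -0.29 had a standard error of 0.13 (edgeR adjusted p = 0.334), with a limma-voom 95% interval from -0.63 to 0.082. Only 32 to 61 reads per library fell on the gene, for which counting error alone gives a coefficient of variation of 16.1% in GF+MEV and 14.3% in GF+PBS, against 9.90% and 18.6% observed. Of the stretches of 50 bases in the *Pim2* transcripts, 1.57% were shared with Gm21182 and Gm7645.

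**Figure D1:**
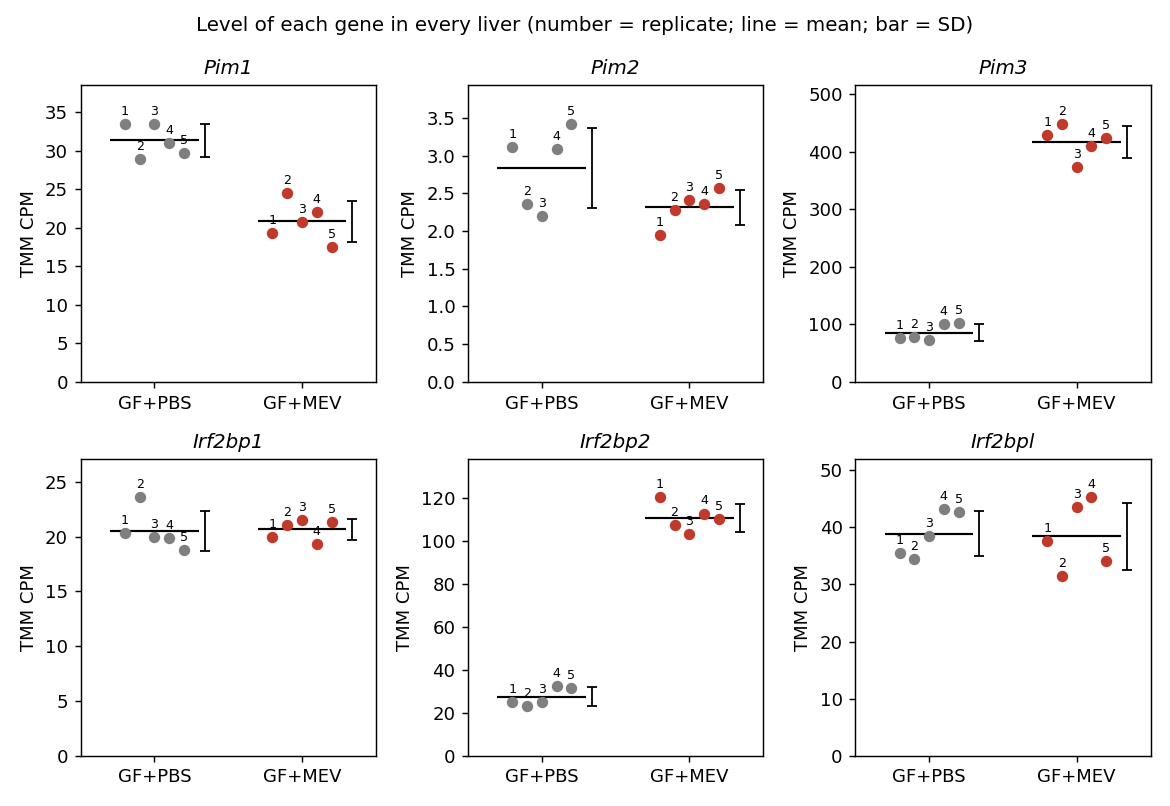
TMM CPM (vertical axes, each from 0) of the 6 genes in GF+PBS (grey) and GF+MEV (red) livers, where each point is a liver with its replicate number, the line is the mean and the bar the SD (n = 5). *Pim3* and *Irf2bp2* lie higher in every GF+MEV liver, *Pim1* lies lower in every GF+MEV liver, and the groups overlap for *Pim2*, *Irf2bp1* and *Irf2bpl*.

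*Irf2bp2* (ENSMUSG00000051495, chr8:126588296-126593986 on the minus strand, 2 exons) encodes the corepressor of IRF2 that also binds NFAT factors. Its level was 120.0, 107, 103, 113 and 109.8 CPM in GF+MEV livers 1 to 5. In GF+PBS livers 1 to 5 it was 24.8, 22.9, 25.1, 32.6 and 31.4 CPM. As for *Pim3*, the groups were far apart and GF+PBS replicates 4 and 5 were the highest of their group. The means were 111 ± 6.39 CPM and 27.3 ± 4.35 CPM (SD, n = 5 each), a 4.04-fold difference (log2 fold change 2.01, standard error 0.11), number 34 of 12147 genes by size of rise. The coefficient of variation was 5.78% in GF+MEV and 15.9% in GF+PBS livers, against 2.33% and 4.59% from counting error.

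The *Irf2bp2* count rests on 1556 to 2132 reads per GF+MEV library and 408 to 645 reads per GF+PBS library. Its exons overlap those of the antisense gene Gm26759 on the other strand over 1039 bases (20.5% of the *Irf2bp2* exon length), and that gene has no row in the count table. Without a known strand setting, it is also not known whether reads in that overlap were counted for *Irf2bp2* or left out. With the alike GF+PBS libraries summed, the log2 fold change was 2.06, and leaving out any single liver gave 1.96 to 2.09.

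*Irf2bp1* (ENSMUSG00000044030, chr7:19004044-19006777, plus strand, 1 exon), which encodes the other IRF2 corepressor found in the same screen, had overlapping groups, unlike *Irf2bp2*. Its level was 20.01, 21.1, 21.5, 19.4 and 21.3 CPM in GF+MEV livers 1 to 5, and 20.4, 23.6, 19.996, 19.9 and 18.8 CPM in GF+PBS livers 1 to 5. The GF+MEV values all fell inside the GF+PBS range. On the log2 scale the difference was 0.0093 (edgeR adjusted p = 0.963) with a standard error of 0.062, and the limma-voom 95% interval ran from -0.15 to 0.17. No stretch of 50 bases in its transcript was shared with another gene.

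*Irf2bpl* (ENSMUSG00000034168, chr12:86880701-86884798, minus strand, 1 exon) encodes the relative known for its role in neurons, and it was the most abundant IRF2BP gene per length in GF+PBS livers. Its level was 37.6, 31.5, 43.5, 45.3 and 34.2 CPM in GF+MEV livers 1 to 5 and 35.6, 34.5, 38.4, 43.2 and 42.8 CPM in GF+PBS livers 1 to 5. The groups overlapped over most of their range. On the log2 scale the difference was -0.015 (edgeR adjusted p = 0.957) with a standard error of 0.12, with a limma-voom 95% interval from -0.24 to 0.20. Of the stretches of 50 bases in the *Irf2bpl* transcript, 4.45% were shared with Gm12291 or Gm11950. The sign of the *Irf2bp1* and *Irf2bpl* values changed between alternative fits, which stayed within -0.080 and 0.064 on the log2 scale.

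Levels between genes were compared per kilobase of annotated exon. In GF+PBS livers *Pim3* was at 35.4 ± 5.76 CPM per kilobase (SD, n = 5), followed by *Irf2bpl* at 9.49 ± 0.971, *Pim1* at 9.33 ± 0.628, *Irf2bp1* at 7.51 ± 0.661, *Irf2bp2* at 5.38 ± 0.857 and *Pim2* at 1.01 ± 0.189. The ranges of *Irf2bpl* and *Pim1* overlapped, and these neighbours did not differ beyond their spread. Those of *Pim1* and *Irf2bp1* touched only through GF+PBS replicate 2, where the levels were nearly the same, and *Pim1* was the higher in the other 4 livers. *Irf2bp2* lay below *Irf2bp1* in each GF+PBS liver.

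In GF+MEV livers the order was *Pim3* (172 ± 11.4 CPM per kilobase), *Irf2bp2* (21.8 ± 1.26), *Irf2bpl* (9.38 ± 1.44), *Irf2bp1* (7.56 ± 0.343), *Pim1* (6.201 ± 0.795) and *Pim2* (0.828 ± 0.0820). *Irf2bp2* was thus in the second place and not in the fifth. The ranges of *Irf2bpl* and *Irf2bp1* overlapped, and so did those of *Irf2bp1* and *Pim1*, although *Irf2bp1* was the higher of that pair in each GF+MEV liver. With the longest transcript as length, *Pim1* was at 7.73 and 11.6 CPM per kilobase and *Pim2* at 1.13 and 1.39 in GF+MEV and GF+PBS, while the other 4 genes kept their values. The order then changed, since the mean of *Pim1* passed that of *Irf2bp1* in GF+MEV and that of *Irf2bpl* (9.49) in GF+PBS livers. By that length *Pim1* was above *Irf2bp1* in GF+MEV replicates 2 (9.08 and 7.72) and 4 (8.20 and 7.08). Over all 10 livers, 96.1% of genes with a known length had a lower level per kilobase than *Pim3*, 79.6% a lower level than *Irf2bp2* and 19.7% a lower level than *Pim2*.

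**Figure D2:**
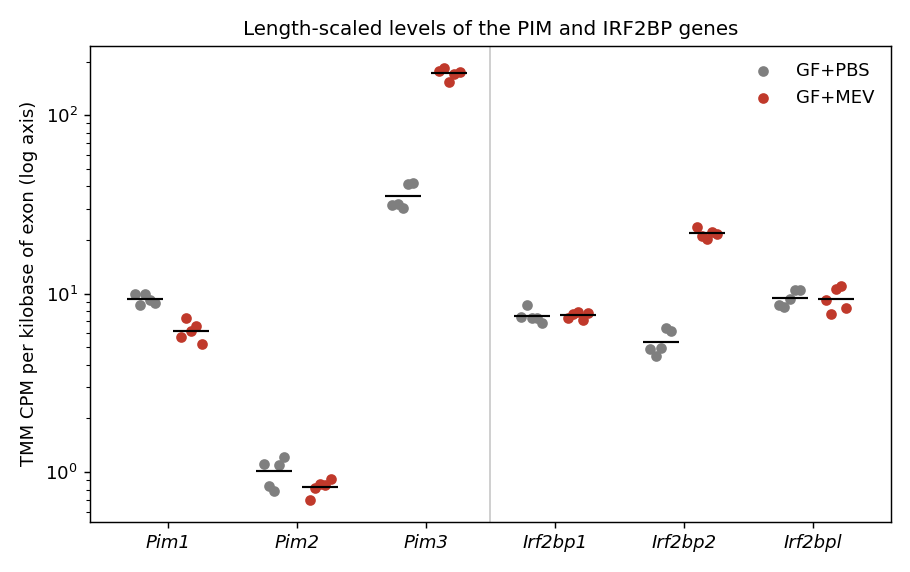
TMM CPM per kilobase of exon (log axis) of the PIM and IRF2BP genes in each GF+PBS (grey) and GF+MEV (red) liver, with the group mean as a line. *Pim3* lies above the other 5 genes in both groups, and *Irf2bp2* goes from a mean of 5.38 in GF+PBS, below *Irf2bpl* and *Irf2bp1*, to 21.8 in GF+MEV, above both.

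The makeup of each family follows from these levels, and is a description since *Pim3* and *Irf2bp2* chose the genes. Summed over the family, PIM mRNA was at 179 ± 11.6 CPM per kilobase in GF+MEV and 45.7 ± 5.62 in GF+PBS livers. *Pim3* held 96.1% of that sum in GF+MEV livers (95.6% to 96.6%) and 77.1% in GF+PBS livers (73.8% to 80.6%). *Pim1* held 3.47% and 20.7%, and *Pim2* 0.465% and 2.21%. There were 28.1 ± 3.89 *Pim3* per *Pim1* in GF+MEV livers and 3.82 ± 0.771 in GF+PBS livers (SD, n = 5 each), both per kilobase.

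In the IRF2BP family the sum was 38.7 ± 1.59 CPM per kilobase in GF+MEV and 22.4 ± 1.39 in GF+PBS livers. *Irf2bp2* was 56.2% of it in GF+MEV and 23.9% in GF+PBS. *Irf2bpl* was 24.2% and 42.3%, and *Irf2bp1* 19.6% and 33.7%. The ratio of *Irf2bp2* to *Irf2bpl* was 2.36 ± 0.380 in GF+MEV and 0.565 ± 0.0358 in GF+PBS livers, and that to *Irf2bp1* was 2.89 ± 0.278 and 0.726 ± 0.161. The ratio of *Pim3* to *Irf2bp2* differed much less between groups, at 7.92 ± 0.524 and 6.58 ± 0.376. Its ranges, 7.47 to 8.76 in GF+MEV and 6.13 to 7.11 in GF+PBS livers, still did not overlap. Both genes were chosen for their rise, so the smaller difference is a description.

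*Pim3* and *Irf2bp2* also had alike profiles over the 10 livers. Likeness was measured as the root mean square difference between log2 CPM profiles, each centred on its own mean, over 11834 genes whose mean reached 1 CPM. *Pim3* and *Irf2bp2* differed by 0.16, and only 2 genes were nearer to each of them than the other was. The median difference to all genes was 1.17 for *Pim3* and 1.04 for *Irf2bp2*. All 10 livers are shared by these profiles, and the step between groups makes up most of each, so the measure also finds genes with a rise of the same size. Both genes were chosen for their rise in these same livers. That choice by itself brings their profiles close and sets them apart from the median gene, so the likeness is only a description.

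Among the 5 genes nearest to *Pim3* were *Tat* (0.14), the tyrosine aminotransferase gene, *Slc38a2* (0.15), a sodium-coupled amino acid transporter, *Cebpd* (0.16) and *Arl4d* (0.19). Among the 5 nearest to *Irf2bp2* were *Tat* (0.14), *Slc38a2* (0.16), *Cebpb* (0.17) and *Dusp1* (0.19). *Cebpb* and *Cebpd* encode C/EBP transcription factors, *Arl4d* a small GTPase and *Dusp1* a MAP kinase phosphatase. *Tat*, nearest to both, ran from 3124 to 4292 CPM in GF+MEV livers and from 723 to 1038 CPM in GF+PBS livers. As with *Pim3* and *Irf2bp2*, its highest GF+PBS livers were replicates 4 and 5. Exons of *Cebpb*, *Cebpd* and *Dusp1* overlap those of *Tmem189*, *Spidr* and *Ergic1* on the other strand.

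**Figure D3:**
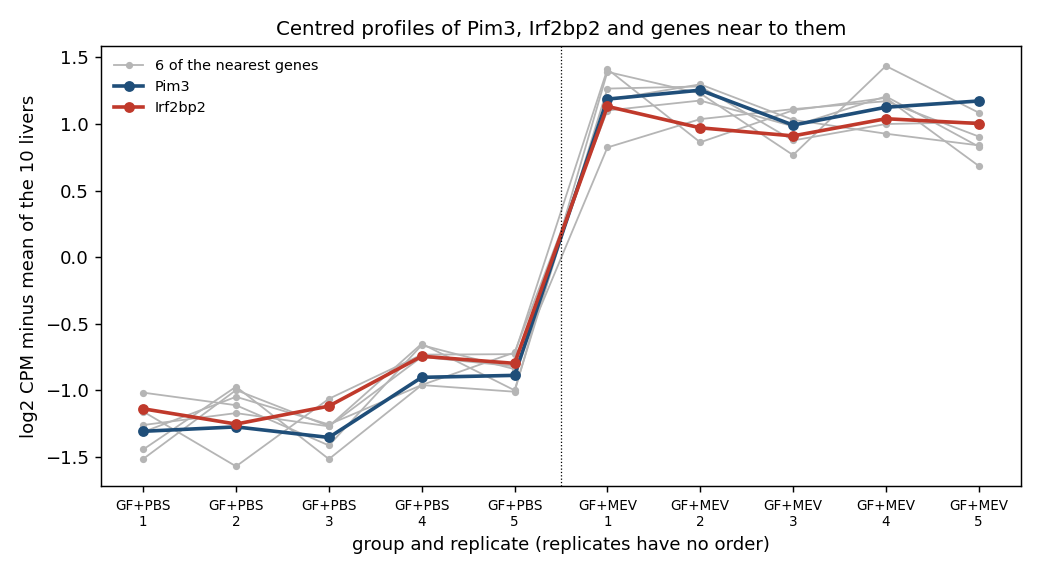
Log2 CPM minus its mean over the 10 livers (vertical axis) for *Pim3* (blue), *Irf2bp2* (red) and 6 of the genes nearest to them (grey), by group and replicate. *Pim3* and *Irf2bp2* differ by a root mean square of 0.16, and both are higher in GF+PBS replicates 4 and 5 than in GF+PBS replicates 1 to 3.

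Genes that act upstream of *Pim1*, *Pim2* and *Pim3* were called at a share close to that of all genes (4.12% higher and 3.52% lower). Of 27 tested receptors, JAK kinases and STAT factors that induce PIM genes (30 listed), 1 was higher, 1 lower and 25 not called, with a median log2 fold change of -0.033 against -0.0037 over all genes. *Il6ra*, the ligand-binding receptor of interleukin-6, rose by 1.10 on the log2 scale (edgeR adjusted p = 7.8e-05), with 79.0 ± 15.4 CPM in GF+MEV and 36.9 ± 5.81 CPM in GF+PBS livers (SD, n = 5 each). Its exons overlap Gm42809 on the other strand. *Stat5a* fell by 0.54 (edgeR adjusted p = 0.033), a call lost on leaving out any of 6 livers (GF+MEV 2, 3, 4 or 5, or GF+PBS 1 or 3; adjusted p up to 0.0865), and its exons overlap those of *Stat3*. *Stat3* itself had 0.24 (edgeR adjusted p = 0.053).

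Other genes that STAT factors induce were set beside *Pim1*, the classical STAT target of the PIM family. Of 11 tested (13 listed), 2 were higher, 4 lower and 5 not called, with a median log2 fold change of -0.14. Over all genes, 4.12% were called higher and 3.52% lower. The feedback inhibitor genes *Cish* (from 18.8 to 6.10 CPM, log2 fold change -1.60, edgeR adjusted p = 0.0055) and *Socs3* (from 23.3 to 10.3 CPM, -1.18, 0.00028) fell, as did *Bcl3* (-0.60, 0.0054), which encodes a nuclear IκB protein. Like *Pim1*, *Socs3* and *Bcl3* had no overlap between groups, as for 3.45% of all genes in that direction, while the groups of *Cish* overlapped. *Pim3*, placed under the same inducers above, was higher in GF+MEV livers (log2 fold change 2.28), opposite to these genes. *Cish* and *Bcl3* overlap other genes on the opposite strand.

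The remaining calls of that list were less secure, apart from *Bcl2l1* (0.37, edgeR adjusted p = 0.014), an antiapoptotic gene. *Igf1* (0.31, edgeR adjusted p = 0.029) lost its call on leaving out any of GF+MEV 1 or 5 or GF+PBS 3, 4 or 5 (adjusted p up to 0.0727). *Myc*, which PIM kinases also phosphorylate, fell by 1.5004 on the log2 scale (edgeR adjusted p = 0.041), a call lost on leaving out any of GF+MEV 1, 2, 3 or 5 or GF+PBS 4 or 5 (up to 0.121). In GF+PBS replicates 4 and 5 *Myc* was at 21.9 and 19.9 CPM, against 3.19 to 7.97 CPM in the other 3 livers. *Pim3* and *Irf2bp2* were highest in those same 2 livers of the group.

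Among proteins that PIM kinases phosphorylate, 22 of 28 listed genes were tested, and 4 were higher, 1 lower and 17 not called, with a median log2 fold change of 0.035. The lower gene is *Myc*, counted also among the STAT-induced genes above, with the lost calls given there. Over all genes, 4.12% were called higher and 3.52% lower. *Cdkn1a*, a cell cycle inhibitor gene, rose from 1.36 to 7.13 CPM (2.39, edgeR adjusted p = 0.00012). *Foxo1* (0.79, 0.00020) and *Foxo3* (0.57, 0.0040), transcription factors held out of the nucleus when phosphorylated, also rose. All 3 genes had no overlap between groups, as for 3.94% of all genes in that direction. *Cdkn1a* and *Foxo1* overlap other genes on the opposite strand. *Map3k5* (0.43, edgeR adjusted p = 0.029) lost its call on leaving out any of GF+MEV 2 or 3 or GF+PBS 1, 2 or 3 (up to 0.0707). These are mRNA levels, and phosphorylation of the proteins was not measured here.

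Of the AKT and mTORC1 kinases and regulators, which share substrates with *Pim1*, *Pim2* and *Pim3*, all 20 listed genes were tested. The shares called over all genes were 4.12% higher and 3.52% lower. *Sgk1*, a kinase of the AKT group, was higher (from 15.1 ± 1.76 to 28.8 ± 1.36 CPM, log2 fold change 0.93, edgeR adjusted p = 3.9e-06), and the other 19 were not called. Of 8 genes tied to the stability of PIM proteins (HSP90 and its partners, the chaperone HSC70, the ubiquitin ligase CHIP and subunits of the phosphatase PP2A), edgeR called none, and neither did DESeq2 or limma-voom. At an unadjusted p under 0.05 there were 2. The most abundant, *Hsp90ab1* and *Hspa8*, had log2 fold changes of 0.10 and 0.20 (edgeR adjusted p = 0.351 and 0.159).

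**Figure D4:**
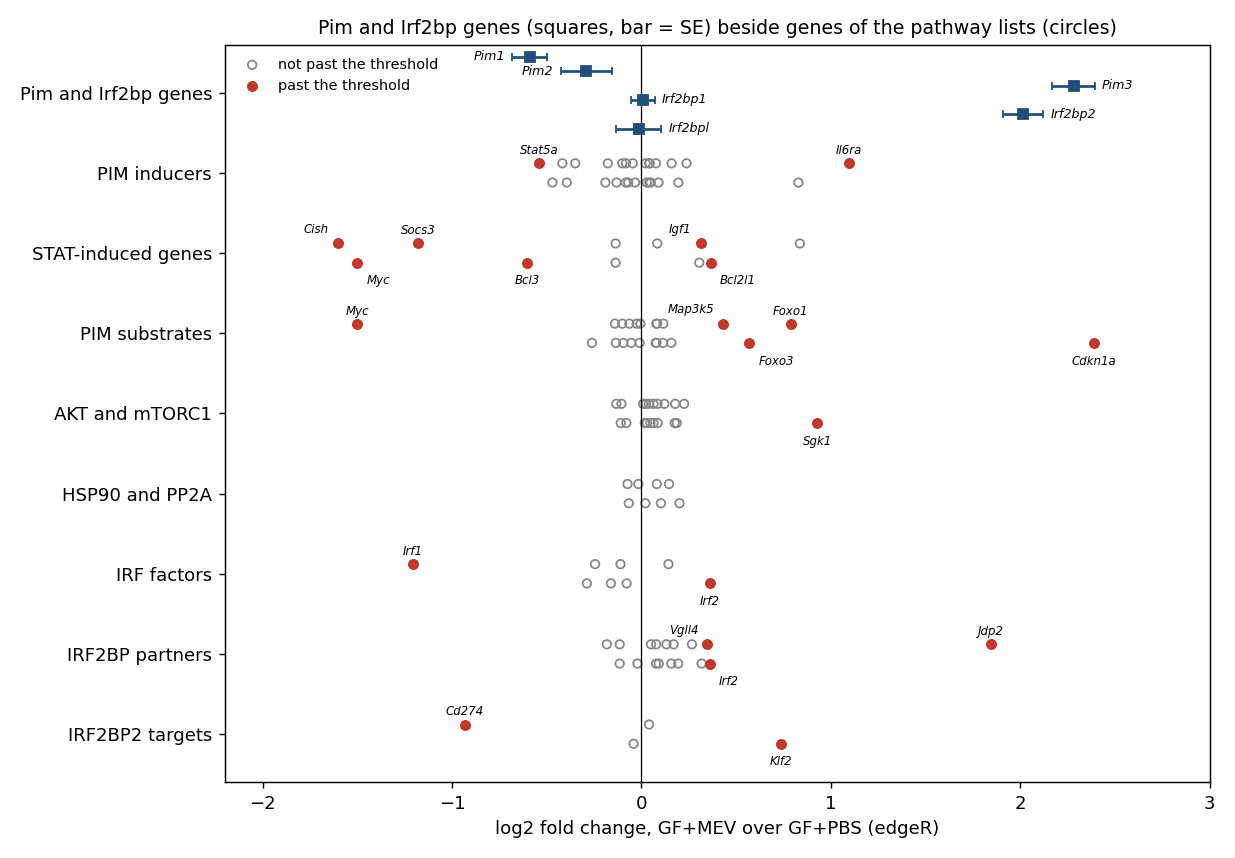
Log2 fold change of GF+MEV over GF+PBS (horizontal axis) for the 6 genes (squares, bars are standard errors) and for tested genes of 8 lists (circles, filled where the edgeR adjusted p was under 0.05). *Pim3* (2.28) and *Irf2bp2* (2.01) lie far to the right, while most genes of the lists lie near 0.

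Genes that work with *Irf2bp1*, *Irf2bp2* and *Irf2bpl* were grouped as interferon regulatory factors, other partners and reported target genes. Their counts stand beside 4.12% called higher and 3.52% called lower over all genes. Of 8 tested interferon regulatory factors (9 listed), 1 was higher, 1 lower and 6 not called, with a median log2 fold change of -0.14. *Irf1*, the activator at interferon-responsive promoters, fell from 37.3 ± 3.09 to 16.2 ± 0.869 CPM (log2 fold change -1.21, edgeR adjusted p = 9.3e-08). *Irf2*, the factor that IRF2BP proteins were found with, rose from 42.3 ± 4.81 to 54.3 ± 3.97 CPM (0.36, edgeR adjusted p = 0.013). Neither gene had overlapping groups, where 3.94% of all genes lay wholly higher and 3.45% wholly lower in GF+MEV livers. With the alike GF+PBS libraries summed, *Irf2* was not past the threshold (0.0540). *Irf1* exons overlap Gm17334 on the other strand.

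Of 17 tested partners of IRF2BP proteins (21 listed, *Irf2* among them), 3 were higher, none lower and 14 not called, with a median log2 fold change of 0.13. *Jdp2*, a bZIP repressor gene, rose from 1.04 to 3.76 CPM (1.85, edgeR adjusted p = 8.4e-05). Its groups did not overlap, as for 3.94% of all genes in that direction, and its exons overlap Gm47863 on the other strand. *Vgll4* (0.35, edgeR adjusted p = 0.021) lost its call without GF+MEV 4 or GF+PBS 3 (up to 0.0593). Of 4 reported IRF2BP2 targets, *Klf2*, an endothelial and leukocyte transcription factor gene, rose from 13.2 ± 0.7096 to 22.01 ± 2.16 CPM (0.74, edgeR adjusted p = 4.4e-05). *Cd274*, which encodes the checkpoint ligand PD-L1, had 1.77 CPM in GF+MEV and 3.38 CPM in GF+PBS livers (-0.93, 0.021), lost without GF+MEV 1 or GF+PBS 4 (up to 0.0524). *Vegfa* and *Fastkd2* were not called.

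Markers of the cell types that whole liver holds were read in the same fit. In that fit 4.12% of all genes were called higher and 3.52% lower. The 6 hepatocyte markers summed to between 91804 and 111155 CPM in GF+MEV livers and between 95960.4 and 111943 CPM in GF+PBS livers, sums made up mostly of *Alb*. Of the 6, *Cps1* was called higher (log2 fold change 0.38, edgeR adjusted p = 0.041) and the other 5 were not called. The 4 B cell markers summed to 3.86 to 4.88 CPM in GF+MEV and 6.61 to 8.44 CPM in GF+PBS livers, with 2 of 4 called lower. *Pim1*, at 17.5 to 33.5 CPM over the livers of both groups, was called lower too, while *Pim2* was not called (edgeR adjusted p = 0.334). The part of B cells in the *Pim1* and *Pim2* values was not tested. None of the macrophage and Kupffer cell markers (6), the stellate cell markers (6), the erythroid markers (3) or the skeletal muscle markers (3) was called. Of 6 endothelial markers 1 was higher and 1 lower, and the 2 tested cholangiocyte markers differed in direction. *Krt19* was called higher (8.20 CPM in GF+MEV and 0.560 CPM in GF+PBS), and *Sox9* was not called (0.961 and 1.88 CPM, edgeR adjusted p = 0.103). None of the 6 T and NK cell or 5 neutrophil markers had a row in the count table used here.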

How the data were processed

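The authors sequenced RNA of 10 livers, aligned the reads to GRCm38 with STAR 2.7.3a and counted them per gene with HTSeq, whose version and strand setting are not given in the sources used here. Genes under 20 counts over their samples were dropped by the authors, who deposited raw counts, not normalized. The table also held 5 columns that match no described sample, which were not used. Symbols and exons came from GENCODE M21, in which 10 identifiers had no symbol, and promoters from RefSeq. The members and gene lists were chosen with earlier results of these data known.

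A minimum of 20 counts over these 10 libraries left 12147 genes. They were compared with edgeR's quasi-likelihood test (version 4.0.16, R 4.3.3), using TMM factors (0.890 to 1.04), group as the only term, and Benjamini-Hochberg adjustment at 0.05. A prior count of 2 was used for log2 CPM, from which standard errors were taken. Intervals came from limma-voom (limma 3.58.1). Named genes were the 6 members, the called genes of each list (at most the 6 with the smallest p, or else the 2 most abundant) and the 5 genes nearest to *Pim3* and to *Irf2bp2*, of which 1 is not reported here. Outside that rule, *Vegfa*, *Fastkd2*, *Stat3*, *Alb*, *Cps1*, *Krt19*, *Sox9*, *Marco* and *Myh4* were named with their values known. All 3 tools were tested on simulated data.

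Alternatives were DESeq2 1.42.0, limma-voom, other scaling factors, no minimum or one of 10 counts per library, a replicate block, summed alike GF+PBS libraries, the longest transcript as length, and each liver left out. Replicate numbers occur in both groups, and nothing says that they pair mice. The p-values set the difference between groups against the spread between the 5 livers within each group.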

Additional observations from a re-analysis of the deposited data

Results flagged for a closer look

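In 68 groups of 5 livers (34 named genes in each of the 2 treatment groups), a liver was singled out where its gap to the nearest other liver, divided by the range of the group, passed Dixon's critical value of 0.71. Chance alone would pass 3.4 of the 68, and 2 did, neither of them a PIM or IRF2BP gene. *Socs3* was at 13.6 CPM in GF+PBS replicate 2 while the rest of the group lay between 24.4 and 26.4 CPM, a ratio of 0.845. *Klf2* was at 14.5 CPM in GF+PBS replicate 2 while the rest lay between 12.7 and 13.1 CPM, a ratio of 0.766. Both genes kept their call without that liver.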

How the results depend on the processing

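The log2 fold changes of *Pim3* (2.23 to 2.35), *Irf2bp2* (1.96 to 2.09), *Pim1* (-0.65 to -0.53) and *Pim2* (-0.37 to -0.22) kept their sign in all 18 alternative fits, and the calls of the 4 relatives did not change in any. *Irf2bp1* turned sign with upper-quartile factors (-0.032) and with GF+PBS replicates 1 and 3, and 4 and 5, summed (-0.011), and ran from -0.021 to 0.064 with a liver left out. *Irf2bpl* turned sign with the summed libraries (0.020), and ran from -0.080 to 0.050 with a liver left out. The summed libraries, which are fewer samples, gave 561 calls, 209 of them lower, against 928 and 428, and in the lists 1 PIM inducer, 3 PIM substrates, 1 interferon regulatory factor, 1 IRF2BP partner and 1 IRF2BP2 target. Leaving out a liver gave 696 to 926 calls, with 1 to 2 PIM inducers, 3 to 5 PIM substrates, 1 to 2 AKT and mTORC1 genes and 1 to 2 IRF2BP2 targets. Upper-quartile factors called 1040.0 genes, 41.2% of them higher against 53.9% with TMM, and moved the median of all genes from -0.0037 to -0.046. Calls of *Stat5a*, *Igf1* (0.0526 with upper-quartile factors), *Myc* (0.167 with limma-voom), *Map3k5*, *Irf2*, *Vgll4* and *Cd274* were lost with the summed libraries, at adjusted p-values of 0.0501 to 0.118. The replicate block gave 792 calls and ended that of *Map3k5* (0.0545) among named genes. Livers with the same number correlated at -0.15 to 0.14, and 1 of 5 correlated best with its own number, so the numbers were not taken to pair mice. *Pim1* and *Pim2* moved per kilobase with the longest transcript as length. Depth limits *Pim2*, at 32 to 61 reads per library.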
